A study of Homo sapiens with 9 samples.

Results

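In Jurkat T cells activated through CD3 and CD28, 85 genes held their ribosome footprints near the resting level at 5 h and were well below it at 12 h. They were picked from 19569 gene IDs by measured values alone. The rule used each gene's CPM, its count divided by the library total and scaled to 1000000 counts. It asked for a mean CPM of at least 10 over the 9 libraries, a 5 h/resting ratio from 0.8 to 1.25, and 12 h/resting and 12 h/5 h ratios of at most 0.6. Of the 8824 IDs that reached the CPM floor, the members were 0.963%. The libraries, the ratios and all 3 comparisons between the times chose these genes, so every level, ratio and call given for a member is a description with no test of its own.

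The cell line was Jurkat clone E6-1, human T lymphoblasts derived from a leukaemia, so the cells are a transformed and dividing stand-in for a T cell. The control was resting cells (3 libraries). The activated cells had been on plates coated with anti-CD3 antibody at 10 µg/mL, with anti-CD28 antibody at 5 µg/mL in the medium, for 5 h (3 libraries) or 12 h (3 libraries). The design text calls the 3 libraries of each group biological replicates and the control cells not activated. The shallowest library, 12 h replicate 2, held 4343515 counts and the deepest 18506509.

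Ribosome profiling counts the short mRNA pieces that ribosomes cover. A gene's footprint count therefore follows both the amount of its mRNA and how heavily that mRNA is translated, and these were not separated here. As these are bulk libraries, fewer cells of a kind and less RNA per cell cannot be told apart either. T cell activation is known for an early wave of cytokine and transcription factor genes and a later remodelling of growth, metabolism and the cell cycle.

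The deposited tables name genes by Ensembl ID only. Symbols given here were assigned from general knowledge of the public Ensembl IDs, and no table that pairs IDs with symbols was used, so the ID is printed with each member named and is the identity that the data carry. All 85 symbols occur among the RefSeq genes of GRCh38.p14, which shows that the symbols are current and does not test the pairing. The T lymphoblast label was set against 12 T cell markers named in the same way, which had means from 16.22 to 1780 CPM. Means were under 1 CPM for 5 of 8 B cell markers, 7 of 10 myeloid markers and 3 of 10 epithelial and stromal markers. The highest means in these 3 lists were 100.4 CPM for the B cell marker CD79A, 1.748 for the myeloid and 24.84 for the epithelial and stromal markers, and the B cell markers summed to 107.1 to 127.5 CPM at rest, 98.57 to 132.7 at 5 h and 102.0 to 123.2 at 12 h. The epithelial and stromal markers summed to 18.78 to 31.39 CPM at rest, 39.82 to 65.0 at 5 h and 48.81 to 76.42 at 12 h. The part of this difference in the results was not tested.

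The members' 12 h/resting ratios ran from 0.285 to 0.5997 with a median of 0.494, beside a median of 1.102 over all 8824 IDs at the floor. Their 12 h/5 h ratios ran from 0.318 to 0.598 (median 0.496, beside 1.03 over all), and their 5 h/resting ratios from 0.802 to 1.23 (median 0.982, beside 1.05). At 5 h, 39 members stood above the resting mean and 46 below it when scaled by library totals; on edgeR's TMM scale 21 stood above and 64 below, and with DESeq2's size factors 16 and 69. A ratio of at most 0.5 at 12 h was found for 47 members, of at most 0.4 for 15 and of at most 0.3 for 2. The late fall was the less common course: of 480 IDs at the floor with a 12 h/resting ratio of at most 0.6, 318 were already under the early band at 5 h, 23 were above it and 139 lay inside it, and 54 of these last had a 12 h/5 h ratio above 0.6.

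**Figure D1:**
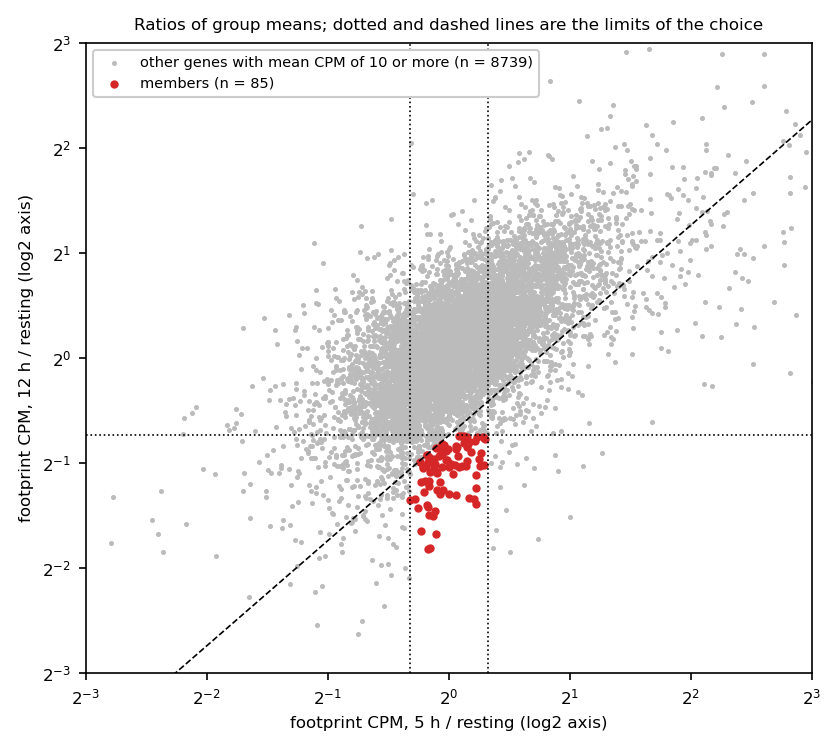
Ratio of mean footprint CPM at 5 h to resting (horizontal, log2 axis) against the ratio at 12 h to resting (vertical, log2 axis) for the 8824 IDs with a mean CPM of at least 10. Red points are the 85 members and grey points all others; dotted lines mark 0.8 and 1.25 at 5 h and 0.6 at 12 h, the dashed line marks a 12 h/5 h ratio of 0.6, and 67 IDs lie outside the axes.

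The members together took 9158, 8693 and 9040 CPM in the resting libraries, 8483, 8258 and 8525 at 5 h and 4356, 4277 and 4426 at 12 h. All 3 of the 12 h sums lay below the lowest of the others, and each 5 h sum lay below each resting sum. The histone gene H2AC18 alone gave 3073 ± 355 CPM of the sum at rest (SD, n = 3). Without that gene the sums over members were 5891 ± 114 CPM in resting cells (SD, n = 3), then 5818 ± 169 after 5 h and 2802 ± 41.2 after 12 h. Most members were of modest abundance, with a median of 31.4 CPM over the 9 libraries and a range from 10.0 to 2409. Of the 85, 84 had all 3 of the 12 h libraries below every resting library, a pattern that 20.9% of the IDs at the floor showed. Likewise 82 had them below every 5 h library, beside 22.9% at the floor, and 81 met both. The exceptions were MED17, H2BC6, TRAPPC2B and ZNF765. All 3 of the 12 h libraries were at or under 0.6 of the resting mean for 56 members, 2 of them for 23 members and 1 for 6.

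One class of members concerned the nucleolus, where ribosomal RNA is made, cut and folded into ribosome subunits with the help of guide particles and assembly factors. It held 9 members with a median 12 h/resting ratio of 0.442. NOL9 (ENSG00000162408.11), a polynucleotide kinase that acts in ribosomal RNA processing, gave 64.5, 68.6 and 63.4 CPM at rest, 57.2, 53.8 and 63.5 at 5 h and 27.2, 21.9 and 24.4 at 12 h. WDR43 (ENSG00000163811.12), a subunit of the small subunit processome that couples to transcription of the ribosomal RNA precursor, gave 197, 224 and 190.4 CPM at rest, 180.3, 193 and 197 at 5 h and 86.1, 80.3 and 89.6 at 12 h. Box C/D particles, which guide methylation of ribosomal RNA, contain NOP58 (ENSG00000055044.11), with 156, 177 and 168 CPM at rest, 144, 162 and 162 at 5 h and 68.3, 85.2 and 81.6 at 12 h. In all 3 genes the 12 h libraries lay below every other library, with ratios to rest of 0.374, 0.419 and 0.469, while the 5 h and resting libraries of NOL9, WDR43 and NOP58 overlapped. RRS1 (ENSG00000179041.4), an assembly factor of the large subunit, gave 15.9, 13.8 and 19.4 CPM at rest, 17.6, 13.5 and 15.5 at 5 h and 6.46, 5.53 and 7.999 at 12 h, and its 12 h libraries also lay below all others. The other 5 members were NOP16 (ENSG00000048162.21) of large subunit assembly, FSAF1 (ENSG00000143633.13) and UTP6 (ENSG00000108651.10) of the small subunit processome, POLR1B (ENSG00000125630.16), the second largest subunit of RNA polymerase I, and PINX1 (ENSG00000254093.9), a nucleolar inhibitor of telomerase. Their 12 h/resting ratios were 0.419, 0.442, 0.573, 0.536 and 0.4902. At 5 h every library of POLR1B and PINX1 lay above every resting library, at ratios of 1.203 and 1.19, and UTP6 stood at 1.12 with overlapping libraries.

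A list of 61 nucleolar and ribosome assembly genes, 5 of them members, put these genes in context. Of the 56 genes on it that the rule did not pick, 40 fell at 12 h against rest in the edgeR quasi-likelihood test (p-values adjusted by Benjamini-Hochberg) and 0 rose, beside 19.3% called lower and 15.8% called higher among all 13920 IDs tested. At an unadjusted p under 0.05 the count of rises was 1, and DESeq2 called 0. Their median log2 change was -0.54, beside 0.04 over all IDs. The same 56 genes already differed at 5 h: 26 were lower and 2 higher against rest, beside 18.4% and 16.0% of all IDs, and between 5 h and 12 h 28 fell and 2 rose, beside 13.5% and 11.6%. The 3 with the largest changes at 12 h were UTP14A (ENSG00000156697.13) and NOP14 (ENSG00000087269.16), both of the small subunit processome, and DKC1 (ENSG00000130826.18), the pseudouridine synthase of box H/ACA particles. UTP14A fell by 1.46 on the log2 scale at 12 h (SE 0.15, adjusted p = 7.26e-08) and by 0.58 at 5 h (adjusted p = 0.00249). NOP14 fell by 1.45 (SE 0.12, adjusted p = 9.11e-10) and DKC1 by 1.13 (SE 0.09, adjusted p = 1.77e-09). All 3 also fell at 5 h against rest.

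RNA-binding and RNA-modifying proteins formed a class of 6 with the lowest median of the classes, 0.440. SRSF3 (ENSG00000112081.17), the smallest of the SR proteins, which act in splicing and mRNA export, gave 444, 425 and 457 CPM at rest, 368, 379 and 380.4 at 5 h and 162, 137 and 124.6 at 12 h. Its mean went from 442 ± 16.2 CPM (SD, n = 3) in resting cells to 376 ± 6.83 after 5 h and 141 ± 18.96 at 12 h, a ratio of 0.319, and the 3 groups did not overlap. TGS1 (ENSG00000137574.11), the methyltransferase that trimethylates the caps of small nuclear and nucleolar RNAs, gave 83.9, 98.9 and 83.9 CPM at rest, 70.6, 80.8 and 83.5 at 5 h and 36.9, 33.4 and 30.9 at 12 h. KIN (ENSG00000151657.12), a DNA- and RNA-binding protein, gave 28.7, 37.9 and 29.1 CPM at rest, 34.98, 37.3 and 38.04 at 5 h and 15.5, 9.8998 and 12.4 at 12 h. Both had 12 h libraries below all others, at ratios of 0.379 and 0.395, but TGS1 was at 0.881 of rest at 5 h and KIN at 1.15. ZC3HAV1L (ENSG00000146858.8), a relative of the zinc finger antiviral protein, was at 0.486 of rest at 12 h. LCMT2 (ENSG00000168806.8), an enzyme of tRNA wybutosine synthesis, lay close to the limit with 31.2, 27.7 and 32.6 CPM at rest, 27.6, 36.8 and 32.5 at 5 h and 19.7, 16.6 and 18.4 at 12 h.

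Splicing factors moved in both directions. Of 63 splicing genes on a list that the rule did not pick, 26 fell and 15 rose at 12 h against rest, beside 19.3% called lower and 15.8% called higher among all IDs, and at 5 h 36 fell and 8 rose, beside 18.4% and 16.0%. Between 5 h and 12 h 24 rose and 16 fell, beside 11.6% and 13.5%. The largest changes at 12 h were those of SRSF6 (ENSG00000124193.16), another SR protein, at -2.47 (SE 0.13, log2, adjusted p = 1.02e-12), and of HNRNPM (ENSG00000099783.12), a nuclear ribonucleoprotein, at -2.26 (SE 0.11, adjusted p = 8.10e-14). CLK4 (ENSG00000113240.13), a kinase that phosphorylates SR proteins, rose by 1.43 (SE 0.19, adjusted p = 3.36e-06). SRSF6 had already fallen by 1.80 at 5 h (adjusted p = 7.72e-11). HNRNPM and CLK4 had also moved by then, at -0.62 (adjusted p = 2.47e-05) and 0.73 (adjusted p = 0.0046).

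Chromosome and cell division genes made up 8 members with a median ratio of 0.487. Cohesion between sister chromatids is laid down during DNA replication and released in mitosis, and several of these proteins act on that path. ESCO2 (ENSG00000171320.15), the acetyltransferase that establishes cohesion in S phase, gave 74.8, 82.1 and 63.1 CPM at rest, 57.4, 73.6 and 66.3 at 5 h and 22.7, 20.5 and 19.6 at 12 h. Its 12 h mean of 20.9 ± 1.6002 CPM (SD, n = 3) was 0.285 of rest, the second lowest ratio among members, with no overlap. KIF15 (ENSG00000163808.17), a kinesin of the mitotic spindle, gave 143, 172 and 159 CPM at rest, 121, 131 and 129 at 5 h and 59.4, 61.5 and 64.6 at 12 h. KIF15 was the member closest to the lower edge of the early band, and its 5 h libraries all lay below its resting ones. TDG (ENSG00000139372.15), the thymine DNA glycosylase of base excision repair and DNA demethylation, gave 143, 156 and 156 CPM at rest, 144, 149.6 and 162 at 5 h and 65.002, 62.6 and 58.3 at 12 h. TDG was level between rest and 5 h, with overlapping libraries, and its 12 h libraries were at 0.409 of rest. DSCC1 (ENSG00000136982.6), a subunit of the CTF18 clamp loader that acts in cohesion, was at 0.557 of rest at 12 h, CDC16 (ENSG00000130177.16), a subunit of the anaphase-promoting complex, at 0.489, and CDKN3 (ENSG00000100526.20), a phosphatase that acts on cyclin-dependent kinases, at 0.523.

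The class also held 2 replication-dependent histone genes. H2AC18 (ENSG00000203812.2), a histone H2A, was by far the most abundant member, with 3364, 2678 and 3178 CPM at rest, 2853, 2393 and 2566 at 5 h and 1509.7, 1513 and 1629 at 12 h. Its groups did not overlap at 12 h, and the ratio was 0.504. H2AC18 has a near-identical copy, H2AC19, whose ID had 0 counts in the table, so the value may stand for both copies together. H2BC6 (ENSG00000274290.3), a histone H2B near the CPM floor, gave 15.2, 11.01 and 13.6 CPM at rest, 10.4, 7.52 and 16.3 at 5 h and 8.61, 2.53 and 8.14 at 12 h. Its 12 h libraries lay below all resting libraries but overlapped those at 5 h, and its count in 12 h replicate 2 was only 11.

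Among 55 genes of a list on mitosis and chromosome segregation that the rule did not pick, 48 fell and 0 rose at 5 h against rest, beside 18.4% and 16.0% of all IDs. At 12 h against rest 38 fell and 0 rose, beside 19.3% and 15.8% (by edgeR's test, with 1 rise at 12 h under DESeq2's size factors). At an unadjusted p under 0.05 the rises numbered 1 at 5 h and 1 at 12 h, and DESeq2 called 0 and 1. Between 5 h and 12 h 21 of the 55 rose and 4 fell, beside 11.6% and 13.5% of all IDs. The median log2 change was 0.24, beside -0.05 over all IDs. The 3 with the largest changes at 12 h were HMMR (ENSG00000072571.20), a spindle protein, at -2.06 (log2, SE 0.12, adjusted p = 6.73e-12), NCAPG (ENSG00000109805.10), a condensin subunit, at -1.53 (SE 0.10, adjusted p = 2.03e-11), and CENPE (ENSG00000138778.13), a kinetochore kinesin, at -1.46 (SE 0.14, adjusted p = 1.34e-08). HMMR and CENPE had reached most of this by 5 h, at -2.06 and -1.28. The other cohesin acetyltransferase, ESCO1 (ENSG00000141446.11), did not pass the test at 12 h (log2 0.01, SE 0.15, adjusted p = 0.96). Of the 2 partners of DSCC1 in the clamp loader, CHTF8 (ENSG00000168802.14) fell by 1.08 at 12 h (SE 0.20, adjusted p = 2.07e-04) and by 0.98 at 5 h (adjusted p = 3.94e-04), and CHTF18 (ENSG00000127586.17), the large subunit, did not pass the test at 12 h (log2 0.09, SE 0.16, adjusted p = 0.7). Of 9 other subunits of the anaphase-promoting complex, 6 fell and 1 rose at 12 h, beside 19.3% and 15.8% of all IDs. The falls were led by CDC27 (ENSG00000004897.12) at -0.95 (SE 0.13, adjusted p = 2.61e-06), ANAPC7 (ENSG00000196510.13) at -0.63 (adjusted p = 9.49e-05) and ANAPC1 (ENSG00000153107.13) at -0.53 (adjusted p = 6.12e-04). These 3 had already fallen at 5 h, at -0.56, -0.57 and -0.59 (adjusted p = 9.65e-04, 2.46e-04 and 1.66e-04). From 5 h to 12 h CDC27 fell further, at -0.39 (adjusted p = 0.024). ANAPC7 and ANAPC1 did not pass that test, at -0.06 and 0.06 (adjusted p = 0.76 and 0.77).

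The 4 promoters below are shown because they belong to a leading RNA-binding member, to the 2 histone members and to a spindle kinesin. Each run is the 250 bases before the annotated start in RefSeq on GRCh38.p14, written 5′ to 3′ on the gene's strand. Capitals mark every match, on either strand, to CCAAT (the CCAAT box), to TATAAA (the TATA box), to GGGCGG (the GC box), to TTTGGCGC (an E2F site) and to AAGATGGC (a YY1 site), which are among 9 motifs searched.
SRSF3, chr6:36594112-36594361, plus strand: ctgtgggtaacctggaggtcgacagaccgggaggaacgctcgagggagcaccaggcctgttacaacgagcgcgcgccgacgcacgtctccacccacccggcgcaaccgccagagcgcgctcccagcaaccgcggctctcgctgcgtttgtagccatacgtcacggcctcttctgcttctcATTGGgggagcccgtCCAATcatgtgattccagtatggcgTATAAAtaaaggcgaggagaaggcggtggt
H2AC18, chr1:149842751-149843000, minus strand: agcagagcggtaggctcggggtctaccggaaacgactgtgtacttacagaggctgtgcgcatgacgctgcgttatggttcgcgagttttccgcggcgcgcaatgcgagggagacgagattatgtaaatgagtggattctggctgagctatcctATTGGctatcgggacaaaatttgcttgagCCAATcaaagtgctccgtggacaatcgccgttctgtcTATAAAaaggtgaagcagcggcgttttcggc
H2BC6, chr6:26183511-26183760, plus strand: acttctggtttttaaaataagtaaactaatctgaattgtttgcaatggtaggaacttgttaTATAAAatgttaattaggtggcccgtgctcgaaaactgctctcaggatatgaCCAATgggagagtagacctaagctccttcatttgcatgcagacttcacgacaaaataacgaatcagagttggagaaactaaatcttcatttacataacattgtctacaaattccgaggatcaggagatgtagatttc
KIF15, chr3:44761544-44761793, plus strand: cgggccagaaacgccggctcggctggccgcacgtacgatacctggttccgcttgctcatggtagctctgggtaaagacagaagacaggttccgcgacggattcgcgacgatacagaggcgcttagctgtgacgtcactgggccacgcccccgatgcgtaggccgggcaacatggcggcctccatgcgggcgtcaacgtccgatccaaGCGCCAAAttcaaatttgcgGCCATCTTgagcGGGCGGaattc
The first 3 hold CCAAT and TATAAA letters, but not in the same layout. In SRSF3 and H2AC18 TATAAA follows CCAAT near the end of the run, and in H2BC6 it lies before CCAAT and far from the start of the gene. The KIF15 promoter holds E2F, YY1 and GC box letters. These matches are descriptions of the letters and no evidence of a bound factor.

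RefSeq promoters, from 250 bases before to 50 after the start, were matched to 69 of the 85 members and set beside 15843 protein-coding promoters of the same length. The letters GGGCGG occurred in 63.8% of the member promoters (58.5% of all), CCAAT in 42.0% (36.4%), TATAAA in 8.70% (9.63%) and the E-box CACGTG in 8.70% (8.88%). The letters GCGCATGC (an NRF1 core) and AAGATGGC were each found in 10.1% of member promoters, that is 7 of 69, beside 4.26% and 3.91% of all. The letters CCGGAAGT (an ETS site) were also in 7, beside 6.19% of all. TTTGGCGC and the variant TTTCCCGC were each in 2 (2.899%), beside 0.89% and 2.18% of all. Some motif letters can overlap in a promoter, and each was counted once per promoter. A neighbour on the other strand whose start lay within 1000 bases upstream was found for 11 members (15.9%, beside 10.5% of all), among them NOL9, KIF15, KIN, NOP16 and FSAF1.

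Genes of signalling were the most varied class, with 11 members at ratios from 0.285 to 0.5997. NDRG2 (ENSG00000165795.23), of the N-myc downstream-regulated family, gave 17.3, 15.3 and 21.4 CPM at rest, 15.1, 15.6 and 17.3 at 5 h and 6.72, 3.22 and 5.43 at 12 h. Its ratio of 0.285 was the lowest of all members, on low counts: its 3 libraries at 12 h held 75, 14 and 38. RGL4 (ENSG00000159496.14), a relative of the exchange factors for Ral GTPases, gave 29.8, 30.4 and 29.04 CPM at rest, 35.3, 22.95 and 24.5 at 5 h and 7.8002, 10.8 and 9.28 at 12 h. LDLRAD4 (ENSG00000168675.19), an inhibitor of TGF-beta signalling, gave 44.5, 34.3 and 49.02 CPM at rest, 38.03, 46.1 and 34.2 at 5 h and 14.6, 17.3 and 14.9 at 12 h. All 3 genes had 12 h libraries well under every other library, and the 5 h and resting libraries of NDRG2, RGL4 and LDLRAD4 overlapped. PPP6R3 (ENSG00000110075.15), a regulatory subunit of protein phosphatase 6, gave 166, 168 and 168 CPM at rest, 161, 182 and 176 at 5 h and 81.6, 77.1 and 88.7 at 12 h, with resting libraries that spread by 1.22 CPM (SD, n = 3) and a ratio of 0.494. RIPK1 (ENSG00000137275.16), the kinase that relays signals from TNF receptors, gave 26.95, 32.6 and 26.6 CPM at rest, 23.9, 24.9 and 22.1 at 5 h and 11.03, 10.6 and 12.4 at 12 h. PRKAA1 (ENSG00000132356.11), a catalytic subunit of the energy sensor AMPK, gave 73.1, 85.04 and 73.5 CPM at rest, 74.9, 91.96 and 86.3 at 5 h and 50.03, 43.7 and 45.1 at 12 h. RIPK1 lay lower than rest in every 5 h library, whereas PRKAA1 overlapped with rest at 5 h and had the 12 h/resting ratio nearest to the limit, 0.5997. The remaining members were RASA3 (ENSG00000185989.11), which switches off Ras and Rap1, ARHGEF7 (ENSG00000102606.18), which activates Rac1 and Cdc42, ABR (ENSG00000159842.15), a relative of the BCR protein, PDE3B (ENSG00000152270.9), a cyclic nucleotide phosphodiesterase, and GUCY1A1 (ENSG00000164116.17), a subunit of the nitric oxide receptor. Their ratios were 0.511, 0.532, 0.538, 0.521 and 0.5598.

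T cell receptor signalling genes moved in both directions around these members. Of 48 on a list that the rule did not pick, 20 rose and 13 fell at 12 h, beside 15.8% and 19.3% of all IDs, and 24 rose and 15 fell at 5 h, beside 16.0% and 18.4%. The largest changes were CD4 (ENSG00000010610.10), the coreceptor, at -3.16 (log2, SE 0.43, adjusted p = 3.24e-06), CD69 (ENSG00000110848.8), an activation marker, at 2.55 (SE 0.14, adjusted p = 1.35e-12), and CD6 (ENSG00000013725.14), a costimulatory receptor, at 1.36 (SE 0.12, adjusted p = 5.41e-09). CD4 was of low abundance, with a mean under the floor of 10 CPM set for members. It was already lower at 5 h, at -1.25 (adjusted p = 0.008). CD69 stood at 4.67 at 5 h and CD6 at 1.68, and both fell from 5 h to 12 h (adjusted p = 6.37e-12 and 0.041). The CD6 call between 5 h and 12 h was lost under 7 of 15 alternatives, namely the replicate block, DESeq2's size factors in edgeR, at least 50 counts in 3 libraries, and without 5 h or 12 h replicate 1 or 3. Of 4 other AMPK subunits tested, 1 rose and 1 fell at 12 h, beside 15.8% and 19.3% of all IDs. They were PRKAB1 (ENSG00000111725.11) at 0.38 (adjusted p = 0.0087) and PRKAG1 (ENSG00000181929.13) at -0.42 (adjusted p = 0.01). The first call was lost without resting replicate 1 and the other without 12 h replicate 2. PRKAG1 already stood at -0.64 at 5 h against rest (adjusted p = 2.32e-04), and PRKAB1 was not called there.

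The class named for surface and secreted proteins had 4 members, with no such role stated here for PLAC8. CD7 (ENSG00000173762.8), a T cell surface protein used as a T lineage marker, gave 153, 124 and 161 CPM at rest, 146, 115 and 130.3 at 5 h and 55.1, 66.996 and 65.7 at 12 h. PLAC8 (ENSG00000145287.11), a small cysteine-rich protein of blood cells, gave 40.2, 39.03 and 38.8 CPM at rest, 38.2, 37.5 and 36.7 at 5 h and 19.4, 14.7 and 17.997 at 12 h. CLEC11A (ENSG00000105472.13), a secreted lectin that acts as a growth factor, gave 50.004, 34.3 and 46.8 CPM at rest, 48.04, 30.4 and 38.7 at 5 h and 15.2, 22.3 and 20.6 at 12 h. Their 12 h libraries lay below all others at ratios of 0.429, 0.442 and 0.443, and the 5 h libraries of PLAC8 already lay below every resting library and the 5 h and resting libraries of CD7 and CLEC11A overlapped. LRP11 (ENSG00000120256.11), a relative of the low-density lipoprotein receptors, was at 0.504. Of the 11 other T cell markers, 6 rose and 4 fell at 12 h, beside 15.8% and 19.3% of all IDs. The largest changes were those of CD5 (ENSG00000110448.11) at 1.14 (log2, SE 0.10, adjusted p = 1.02e-08), LAT (ENSG00000213658.12), the adaptor of the receptor, at 1.105 (SE 0.25, adjusted p = 0.0011), and CD3G (ENSG00000160654.11), a chain of the receptor complex, at -0.99 (SE 0.09, adjusted p = 1.15e-08). At 5 h these 3 already stood at 1.24, 1.73 and -0.60 (adjusted p = 1.90e-09, 4.36e-06 and 1.31e-05).

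**Figure D2:**
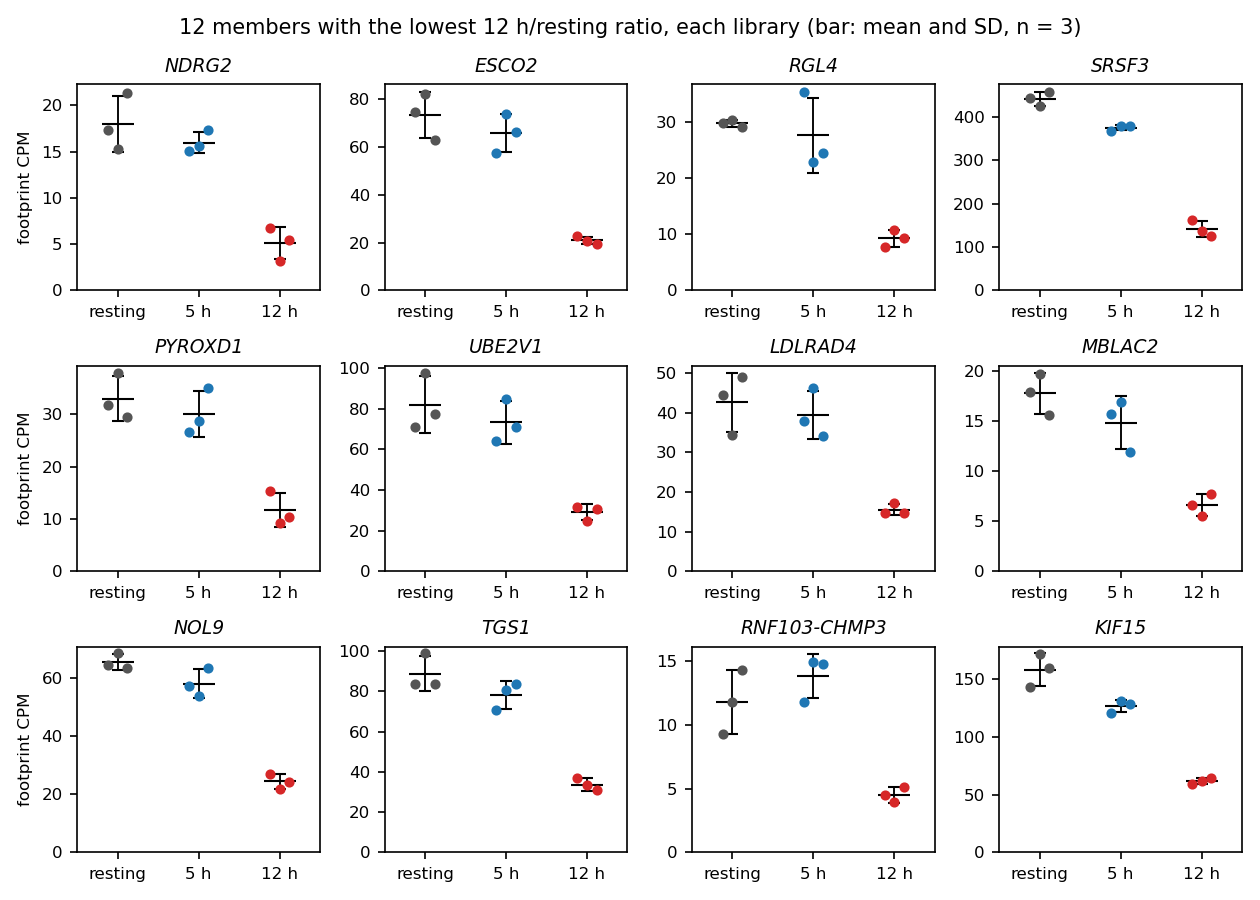
Footprint CPM of the 12 members with the lowest 12 h/resting ratio, 1 panel a gene. Points are the 3 libraries at rest (grey), 5 h (blue) and 12 h (red), bars are mean and SD, and vertical axes start at 0; in every panel the 12 h points lie below all others.

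A class named for membrane traffic and sorting had 11 members, among them a nuclear import receptor and a protein of little known function. TM9SF2 (ENSG00000125304.10), a membrane protein of the Golgi and endosomes, gave 231, 263 and 227 CPM at rest, 225, 252 and 274 at 5 h and 137, 127 and 133 at 12 h. IGF2R (ENSG00000197081.16), the cation-independent mannose 6-phosphate receptor that carries lysosomal enzymes, gave 178, 189 and 190.2 CPM at rest, 169, 176 and 173 at 5 h and 85.98, 114 and 109 at 12 h. JAGN1 (ENSG00000171135.15), a protein of the endoplasmic reticulum, gave 56.4, 51.2 and 54.8 CPM at rest, 46.4, 53.8 and 50.7 at 5 h and 26.8, 29.5 and 20.4 at 12 h. Each had its 12 h libraries below all others, at 0.549, 0.554 and 0.472 of rest, and the 5 h libraries of IGF2R already lay below every resting library and the 5 h and resting libraries of TM9SF2 and JAGN1 overlapped. FAM114A2 (ENSG00000055147.19), a protein of little known function, gave 38.3, 46.4 and 34.8 CPM at rest, 42.98, 41.7 and 39.8 at 5 h and 20.2, 14.5 and 13.9 at 12 h. RNF103-CHMP3 (ENSG00000249884.8), a read-through transcript of 2 neighbouring genes, gave 9.31, 11.8 and 14.3 CPM at rest, 11.8, 14.9 and 14.8 at 5 h and 4.48, 3.91 and 5.14 at 12 h. GLIPR2 (ENSG00000122694.16), a Golgi-associated protein near the upper edge of the early band, gave 29.4, 24.1 and 20.1 CPM at rest, 36.7, 27.9 and 25.6 at 5 h and 10.2, 14.04 and 12.1 at 12 h. These 3 lay at 0.406, 0.383 and 0.495 of rest at 12 h, with no overlap between 12 h and the other times. STX18 (ENSG00000168818.10), a SNARE of the endoplasmic reticulum, stood at 0.512, TMX2 (ENSG00000213593.10), a thioredoxin-related membrane protein, at 0.491, SH3TC1 (ENSG00000125089.17), an SH3 domain protein, at 0.498, and IPO11 (ENSG00000086200.17), a nuclear import receptor, at 0.5502. TRAPPC2B (ENSG00000256060.3), a near-identical copy of the trafficking gene TRAPPC2, gave 14.6, 16.9 and 12.8 CPM at rest, 8.64, 19.7 and 16.6 at 5 h and 7.44, 1.84 and 12.7 at 12 h, with 12 h libraries that overlapped those at 5 h.

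Protein turnover genes numbered 5. UBE2V1 (ENSG00000244687.12), the partner of UBC13 in making K63-linked ubiquitin chains, gave 70.8, 97.6 and 77.4 CPM at rest, 64.1, 84.98 and 70.9 at 5 h and 31.8, 24.6 and 30.7 at 12 h. Its 12 h libraries lay at 0.355 of rest and below all others. FBXO28 (ENSG00000143756.12), an F-box protein, gave 39.2, 45.1 and 37.2 CPM at rest, 42.9, 46.4 and 52.8 at 5 h and 18.9, 16.6 and 20.6 at 12 h. KBTBD8 (ENSG00000163376.11), a substrate adaptor of cullin 3, gave 24.03, 28.5 and 22.6 CPM at rest, 19.5, 25.5 and 29.6 at 5 h and 14.3, 11.7 and 15.3 at 12 h. ATG4B (ENSG00000168397.17), the protease that processes LC3 in autophagy, gave 76.4, 70.8 and 59.5 CPM at rest, 68.3, 76.8 and 76.8 at 5 h and 41.9, 37.1 and 44.9 at 12 h. None of the 3 had a 12 h library that reached its other libraries, and the ratios were 0.461, 0.5503 and 0.599. FBXO4 (ENSG00000151876.13), another F-box protein, was at 0.557. UBE2N (ENSG00000177889.10), which is UBC13 itself, fell by 0.47 on the log2 scale at 12 h (SE 0.09, adjusted p = 2.53e-04). UBE2V1 stood at -1.67 (SE 0.15), but the choice of members required a large fall of it, so the 2 values are no test of a difference. UBE2V2 (ENSG00000169139.12), the other such partner of UBC13, fell by 0.33 (SE 0.11, adjusted p = 0.025), a call lost with at least 50 counts in 3 libraries and without resting replicate 2, 12 h replicate 2 or 12 h replicate 3. Of 38 autophagy and lysosome genes tested outside the members, 11 rose and 7 fell at 12 h, beside 15.8% and 19.3% of all IDs. WIPI1 (ENSG00000070540.13), which acts in forming autophagosomes, rose by 1.90 (log2, SE 0.40, adjusted p = 6.43e-04), GABARAPL1 (ENSG00000139112.11), an LC3 relative, rose by 1.14 (SE 0.20, adjusted p = 6.82e-05), and MCOLN1 (ENSG00000090674.16), a lysosomal channel, fell by 1.14 (SE 0.21, adjusted p = 1.06e-04).

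Metabolic and mitochondrial genes made up 9 members with a median ratio of 0.473. PYROXD1 (ENSG00000121350.16), an oxidoreductase of the nucleus and cytoplasm, gave 31.7, 37.8 and 29.4 CPM at rest, 26.7, 28.7 and 35.1 at 5 h and 15.3, 9.21 and 10.4 at 12 h. MBLAC2 (ENSG00000176055.10), a protein with a metallo-beta-lactamase domain, gave 17.97, 19.8 and 15.6 CPM at rest, 15.7, 16.97 and 11.9 at 5 h and 6.63, 5.53 and 7.71 at 12 h. SLC25A32 (ENSG00000164933.12), the mitochondrial carrier of folate and FAD, gave 51.1, 59.8 and 44.5 CPM at rest, 58.05, 62.5 and 60.95 at 5 h and 26.8, 20.3 and 18.997 at 12 h. The 12 h libraries of all 3 lay below all others, at 0.353, 0.372 and 0.425 of rest, and the 5 h and resting libraries of PYROXD1, MBLAC2 and SLC25A32 overlapped. SLC25A4 (ENSG00000151729.11), an ADP/ATP carrier of the inner mitochondrial membrane, gave 32.8, 29.001 and 29.1 CPM at rest, 25.9, 25.6 and 28.5 at 5 h and 17.8, 12.9 and 17.1 at 12 h. SRR (ENSG00000167720.13), serine racemase, had the highest 5 h/resting ratio of the members and gave 29.4, 27.5 and 28.6 CPM at rest, 32.9, 37.5 and 35.1 at 5 h and 15.96, 19.6 and 14.7 at 12 h. Both had 12 h libraries below all others, but the 5 h libraries of SLC25A4 lay below rest and those of SRR above it. ACADSB (ENSG00000196177.13), of isoleucine breakdown, was at 0.443 of rest, MCAT (ENSG00000100294.13), of mitochondrial fatty acid synthesis, at 0.473, HINT2 (ENSG00000137133.11), a mitochondrial nucleotide hydrolase, at 0.525, and CEBPZOS (ENSG00000218739.10), a small mitochondrial protein, at 0.492. Of the other 2 ADP/ATP carriers tested, SLC25A5 (ENSG00000005022.6) fell by 0.25 (log2, adjusted p = 0.0057) and SLC25A6 (ENSG00000169100.14) by 0.32 (adjusted p = 0.044), a call lost under 8 of 15 alternatives, among them the replicate block, DESeq2's size factors and leaving out resting replicate 1 or 3, 5 h replicate 3 or 12 h replicate 1. SLC25A5 was already at -0.26 at 5 h (adjusted p = 0.0039). From 5 h to 12 h it did not pass the test (log2 0.01, adjusted p = 0.93). SLC25A6 was called in neither of these 2 comparisons. SLC25A4 stood at -1.09 (SE 0.17), a fall that the choice of members required, so it is no test of a difference from the other carriers.

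Translation itself was represented in both compartments. EIF5 (ENSG00000100664.11), the initiation factor that makes eIF2 hydrolyse its GTP at the start codon, gave 175, 176 and 184 CPM at rest, 154, 182 and 185 at 5 h and 111, 88.6 and 101 at 12 h. Its 12 h libraries lay at 0.563 of rest and below all others. EEF1AKMT1 (ENSG00000150456.11), a lysine methyltransferase of elongation factor eEF1A, gave 17.9, 18.97 and 26.3 CPM at rest, 23.4, 26.3 and 23.6 at 5 h and 12.6, 10.8 and 13.1 at 12 h. Of 6 initiation partners of EIF5 outside the members, 5 fell and 1 rose at 12 h, beside 19.3% and 15.8% of all IDs. EIF1AX (ENSG00000173674.11), which helps scan for the start codon, fell by 0.88 (log2, SE 0.11, adjusted p = 8.25e-07) and did not pass the test at 5 h (log2 -0.04, SE 0.10, adjusted p = 0.778). The eIF2 subunits EIF2S3 (ENSG00000130741.11) and EIF2S1 (ENSG00000134001.15) fell by 0.64 (adjusted p = 5.59e-06) and 0.59 (adjusted p = 1.93e-05). Both were already lower at 5 h, at -0.34 (adjusted p = 0.0044) and -0.24 (adjusted p = 0.041). Of the 6 partners 3 fell and 1 rose at 5 h against rest, beside 18.4% and 16.0% of all IDs. Between 5 h and 12 h 4 fell and 0 rose, beside 13.5% and 11.6%.

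In mitochondria, FASTKD3 (ENSG00000124279.12), an RNA-binding protein, gave 33.4, 44.2 and 36.6 CPM at rest, 27.2, 33.01 and 38.4 at 5 h and 20.3, 13.6 and 22.1 at 12 h. MARS2 (ENSG00000247626.5), the mitochondrial methionyl-tRNA synthetase, gave 30.4, 29.4 and 28.1 CPM at rest, 37.2, 31.5 and 27.1 at 5 h and 14.6, 16.6 and 19.1 at 12 h. PDF (ENSG00000258429.2), the deformylase that acts on new mitochondrial peptides, gave 17.2, 9.34 and 14.7 CPM at rest, 19.5, 15.7 and 10.6 at 5 h and 9.06, 5.99 and 8.28 at 12 h. The 12 h libraries of these 3 lay below all others, though only just for PDF, whose lowest resting library exceeded its highest 12 h library by little. TRMT61B (ENSG00000171103.11), a mitochondrial tRNA methyltransferase, was at 0.593 of rest.

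Transcription and chromatin regulators were 11 members with a median ratio of 0.540. RFXAP (ENSG00000133111.4), a subunit of the RFX complex that drives MHC class II genes, gave 30.3, 27.2 and 24.6 CPM at rest, 19.3, 24.4 and 27.6 at 5 h and 13.3, 10.4 and 10.3 at 12 h. ZMYND11 (ENSG00000015171.20), a reader of methylated histone H3.3, gave 42.4, 38.05 and 44.4 CPM at rest, 45.7, 48.8 and 43.8 at 5 h and 25.6, 14.5 and 23.3 at 12 h. HMGA1 (ENSG00000137309.20), an AT-hook chromatin protein, gave 171, 127 and 179 CPM at rest, 232, 175 and 172 at 5 h and 81.2, 94.4 and 108 at 12 h. Each had 12 h libraries below all others, at 0.413, 0.507 and 0.595 of rest, and the 5 h and resting libraries of RFXAP, ZMYND11 and HMGA1 overlapped. E2F5 (ENSG00000133740.11), a repressive E2F factor, gave 26.4, 30.1 and 28.5 CPM at rest, 18.4, 27.5 and 29.1 at 5 h and 15.1, 14.5 and 15.1 at 12 h. The zinc finger gene ZNF117 (ENSG00000152926.15) gave 18.2, 20.3 and 19.9 CPM at rest, 14.5, 22.6 and 22.5 at 5 h and 8.697, 11.5 and 6.999 at 12 h, and ZNF37A (ENSG00000075407.18), another, gave 21.8, 26.2 and 22.3 CPM at rest, 28.8, 30.02 and 27.2 at 5 h and 12.5, 16.6 and 12.3 at 12 h. These 3 also had no overlap between 12 h and the other times. MED17 (ENSG00000042429.12), of the Mediator head, was the least uniform member, with 13.2, 35.4 and 39.9 CPM at rest, 29.8, 29.5 and 44.8 at 5 h and 11.3, 29.5 and 11.7 at 12 h. A single resting library was low and a single 12 h library was high, so that its 12 h and resting libraries overlapped. Its highest 12 h library lay only just under its lowest 5 h library. ING3 (ENSG00000071243.16) of the NuA4 acetyltransferase, STOX1 (ENSG00000165730.16), a winged helix factor, and the zinc finger genes ZNF549 (ENSG00000121406.9) and ZNF765 (ENSG00000196417.13) were at 0.583, 0.5404, 0.5105 and 0.565 of rest.

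Partners of these regulators were mixed. RFXANK (ENSG00000064490.14) of the RFX complex fell by 0.96 at 12 h (log2, SE 0.15, adjusted p = 2.39e-05) and RFX5 (ENSG00000143390.18) rose by 0.47 (SE 0.13, adjusted p = 0.0062), a call lost without resting replicate 3. At 5 h against rest RFXANK already stood at -0.45 (adjusted p = 0.019) and RFX5 at 0.51 (adjusted p = 0.0028). Of 7 other E2F factors, 1 rose and 0 fell at 12 h, beside 15.8% and 19.3% of all IDs. The rise was that of E2F1 (ENSG00000101412.13) at 0.85 (SE 0.15, adjusted p = 1.11e-04). At an unadjusted p under 0.05 the falls numbered 0, and DESeq2 called 0. Of 6 other Mediator head subunits, 2 fell and 0 rose at 12 h, beside 19.3% and 15.8% of all IDs. MED11 (ENSG00000161920.11) fell by 0.94 (adjusted p = 0.0038) and MED6 (ENSG00000133997.12) by 0.92 (adjusted p = 4.00e-05), with 1 rise in the group at an unadjusted p under 0.05 and 0 by DESeq2. At 5 h against rest 4 of the 6 had fallen and 0 had risen, beside 18.4% and 16.0% of all IDs. MED6 was then at -0.68 (adjusted p = 7.00e-04). From 5 h to 12 h 2 of the 6 rose and 0 fell, beside 11.6% and 13.5%, with 1 fall at an unadjusted p under 0.05. Neither MED6 nor MED11 was called from 5 h to 12 h.

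Cilium and intraflagellar transport genes made up 5 members. Lymphocytes are known to lack a primary cilium. CABCOCO1 (ENSG00000183346.9), a basal body protein, gave 27.4, 34.5 and 25.3 CPM at rest, 27.3, 36.8 and 33.6 at 5 h and 11.7, 12.2 and 10.7 at 12 h. DNAAF10 (ENSG00000243667.7), an assembly factor of dynein arms, gave 19.5, 17.9 and 16.7 CPM at rest, 19.3, 17.96 and 14.9 at 5 h and 8.43, 9.21 and 8.71 at 12 h. RAB23 (ENSG00000112210.12), a small GTPase that restrains Hedgehog signalling, gave 8.77, 12.98 and 14.6 CPM at rest, 12.2, 13.9 and 12.97 at 5 h and 4.93, 5.295 and 7.57 at 12 h. In all 3 the 12 h libraries lay below all others, at 0.397, 0.487 and 0.4901 of rest. IFT56 (ENSG00000105948.13) and IFT27 (ENSG00000100360.15) of the intraflagellar transport complex B were at 0.498 and 0.515. Of 11 other genes of that complex, 3 fell and 1 rose at 12 h, beside 19.3% and 15.8% of all IDs. IFT88 (ENSG00000032742.18) fell by 1.64 (log2, SE 0.22, adjusted p = 2.89e-06), IFT172 (ENSG00000138002.16) by 0.71 (adjusted p = 0.016) and IFT22 (ENSG00000128581.17) by 0.70 (adjusted p = 0.0044). The IFT172 call was lost without resting replicate 3 or 12 h replicate 3. IFT88 was already lower at 5 h against rest, at -0.70 (adjusted p = 0.0093), and IFT172 and IFT22 were not called there.

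**Figure D3:**
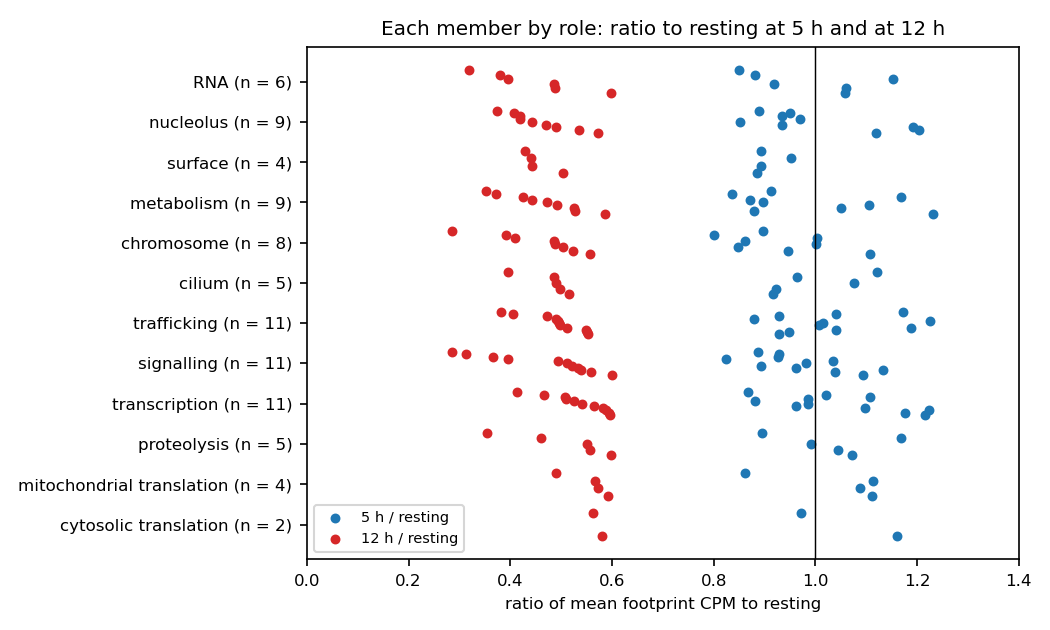
Each member's ratio of mean footprint CPM to rest at 5 h (blue) and 12 h (red), by role, with roles ordered by the median 12 h ratio. The 12 h ratios run from 0.285 to 0.5997 and the 5 h ratios from 0.802 to 1.23, bounds that the choice of members sets in part.

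**Figure D4:**
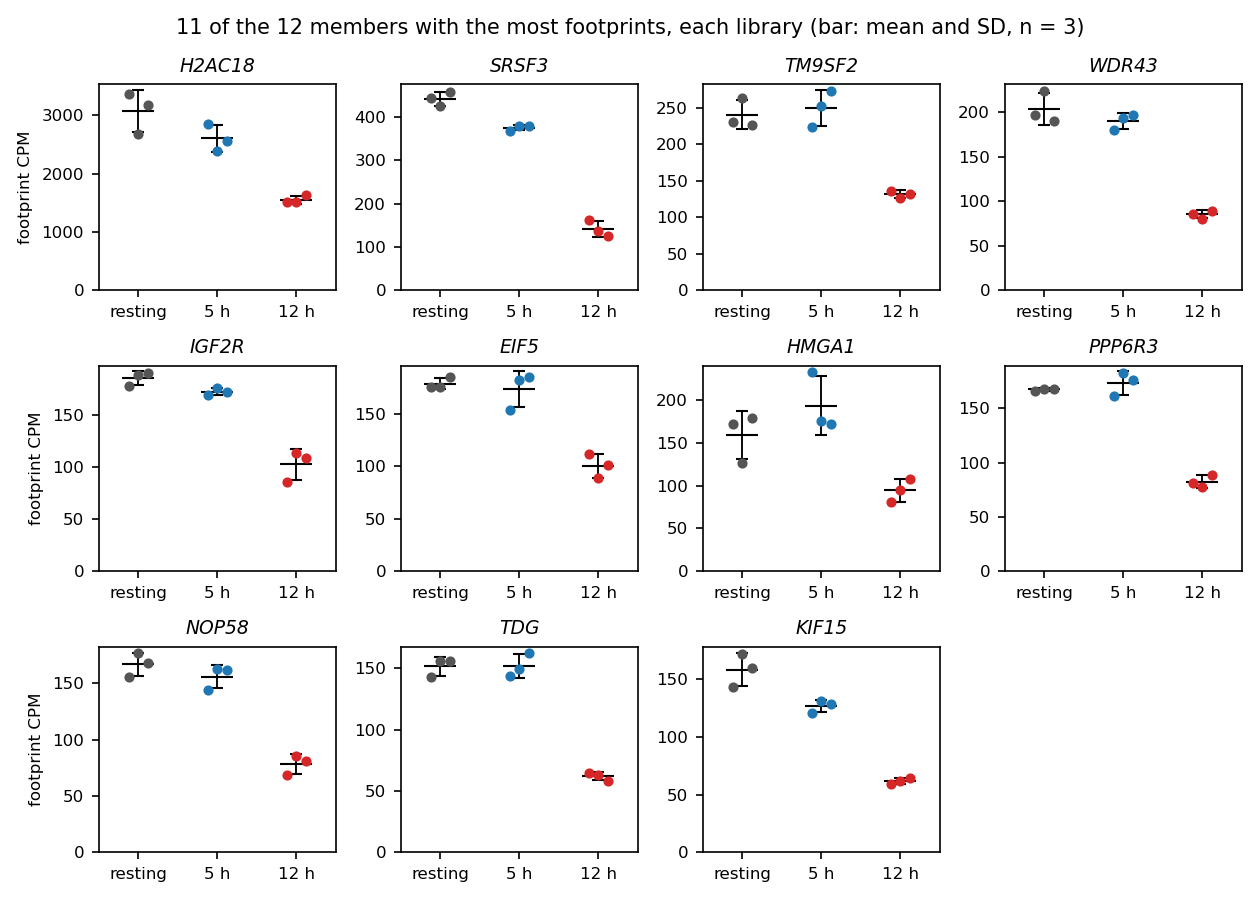
Footprint CPM of 11 of the 12 members with the highest mean CPM, 1 panel a gene, with the 3 libraries at rest (grey), 5 h (blue) and 12 h (red), bars for mean and SD, and axes from 0. In every panel the 12 h points lie below all others, and H2AC18 spans a range several times that of the next gene.

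**Figure D5:**
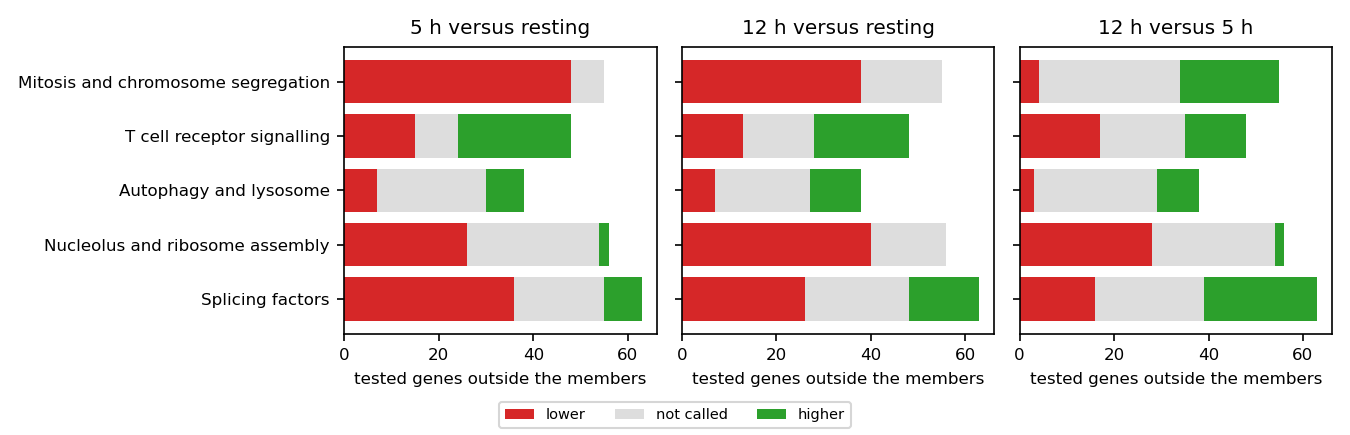
Number of tested genes outside the members that edgeR called lower (red), higher (green) or neither (grey) in 5 fixed gene lists, for each comparison of times. The nucleolar list has 40 lower and 0 higher at 12 h against rest, beside 19.3% and 15.8% of all IDs tested. The mitosis list has 48 lower at 5 h, beside 18.4% of all.

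Some members sit where footprints of neighbours could mix. By RefSeq, 25 of the 85 overlap another protein-coding gene, among them UBE2V1, which overlaps PEDS1-UBE2V1. Whether the authors counted by strand is not stated. COG8 (ENSG00000213380.16), which shares its locus with PDF, went from 36.5 ± 2.93 CPM (SD, n = 3) in resting cells to 19.6 ± 4.16 after 5 h and 28.1 ± 1.91 at 12 h, an early dip that PDF did not show. RNF103 (ENSG00000239305.7) had 20.2 ± 5.32 and 24.3 ± 3.95 CPM at rest and 12 h, and CHMP3 (ENSG00000115561.16) had 2.05 ± 1.18 and 1.48 ± 1.25, so the read-through ID held more footprints than CHMP3 itself. CEBPZ (ENSG00000115816.15), which CEBPZOS adjoins, had 76.4 ± 11.9 CPM at rest and 72.8 ± 4.65 at 12 h. TSR1 (ENSG00000167721.11), beside SRR, had 151 ± 4.67 and 107 ± 0.908. TRAPPC2 (ENSG00000196459.14), the near-identical relative of TRAPPC2B, had 30.7 ± 0.165 CPM at rest, 21.2 ± 1.55 at 5 h and 32.005 ± 2.15 at 12 h, and its course differed from that of TRAPPC2B. The values of overlapping genes and near-identical copies are uncertain for that reason.

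The edges of the choice fell among genes with similar values. Just inside the CPM floor lay RNF103-CHMP3 at a mean of 10.04, RAB23 at 10.35 and H2BC6 at 10.37, and just outside it ZNF587B at 9.61, IMPA2 at 9.54 and FSD1L at 9.50. At the lower edge of the early band, KIF15 (0.802), RIPK1 (0.824) and MBLAC2 (0.836) were in, and ANXA5 (0.798), MYC (0.797) and the histone gene H3C14 (0.797) were out. The transcription factor MYC (ENSG00000136997.21), so close to the edge, gave 477, 450.4 and 464 CPM at rest, 407, 333 and 369 at 5 h and 108, 105 and 112 at 12 h. At the upper edge SRR (1.23), GLIPR2 (1.23) and ZNF37A (1.22) were in, and PPP1R10 (1.27), TRIB2 (1.29) and DHX33 (1.30) were out. For 12 h/resting, PRKAA1, ATG4B and LCMT2 were in at 0.5997, 0.599 and 0.598, and DNAJB12, NUP35 and SLC22A5 were out at 0.601, 0.602 and 0.603. For 12 h/5 h, SLC25A4, E2F5 and IGF2R were in at 0.598, 0.596 and 0.596, and PUS1, SEPTIN6 and GON7 were out at 0.602, 0.602 and 0.603. Of the IDs that missed the choice by 1 limit only, 273 failed the CPM floor, 60 the lower edge, 23 the upper edge, 34 the 12 h/resting limit and 54 the 12 h/5 h limit.

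Because the same libraries chose and described the genes, the choice was repeated on 2 replicates of each time and read in the libraries left out, each with 1 library a time and no test. Leaving out replicate 1 chose 118 IDs, whose summed CPM in the left-out libraries gave 12 h/resting and 5 h/resting ratios of 0.568 and 0.943. Leaving out replicate 2 chose 104, with 0.511 and 0.950, and leaving out replicate 3 chose 90, with 0.499 and 0.901. H2AC18, the most abundant member, was chosen when replicate 2 or 3 was left out, but not when replicate 1 was. It therefore weighs on the sums of those 2 sets and not on the first. As medians over the chosen IDs, the 5 h/resting ratios were 0.913, 0.994 and 0.985. In the left-out libraries 99.2%, 91.3% and 97.8% of the chosen IDs were lower at 12 h than at rest, beside 40.7%, 39.6% and 41.3% of all IDs at the floor. At 5 h 67.8%, 50% and 53.3% of the chosen IDs were lower than at rest there, beside 44.7%, 43.3% and 46.5% of all. The median 12 h/resting ratio was 0.513, 0.502 and 0.497 in the libraries that chose and 0.571, 0.565 and 0.526 in those left out, so the ratio was nearer to 1 in each left-out set. The 12 h/5 h ratios of the sums in the left-out libraries were 0.602, 0.538 and 0.554.

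In the edgeR fit over 13920 IDs, which scales libraries by TMM in place of totals, all 85 members were called lower at 12 h against rest (19.3% of all IDs), 84 at 12 h against 5 h (13.5%) and 7 at 5 h against rest (18.4%), counts that the choice used. DESeq2 called 83 and 82 of them lower in the first 2 comparisons, and with 1 library left out at a time edgeR called 83 to 85 and 81 to 84. The median member stood at -1.20, -1.07 and -0.17 on the log2 scale, beside 0.04, -0.05 and 0.07 over all IDs. The 7 at 5 h were CD7, H2AC18, KIF15, RIPK1, SRSF3, TGS1 and TMX2. TMM moves every 12 h/resting value down by 0.19 on the log2 scale against the library totals and every 5 h/resting value by 0.15. Under it the same limits gave 140 IDs, 72 of them among the 85, so the list of members depends on the scaling. Leaving out 1 library at a time gave between 83 and 104 IDs, and 41 of the 85 members were picked in all 9 of these repeats. The median coefficient of variation of the members was 10.4% at rest, 9.19% at 5 h and 13.6% at 12 h, where all IDs at the floor had 10.3%, 9.46% and 8.94%. The lowest of the 3 libraries at 12 h was replicate 2, the shallowest, for 42 members, replicate 1 for 21 and replicate 3 for 22.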

How the data were processed

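Footprint counts of 9 Jurkat libraries (3 each at rest, 5 h and 12 h) were analysed. The authors deposited whole-number counts per versioned Ensembl ID with no normalization, and a second deposited table of log2 values for 83 of the 85 members; checked against the counts, these equal log2 of the count over a size factor plus 1, and they were not used for any result. Per the submitters' processing notes, the tools were bedtools, Bowtie, cutadapt 3.2, DESeq2 and RSEM and the build GRCh38.p13, in no stated order. The treatment of multiply matching reads and of strand is not stated, so counts of near-identical or overlapping genes are uncertain.

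Members were picked on CPM by library total. Their choice, the gene lists, the partner lists and the role classes were made with earlier results of these data known, the partner lists and classes after the members were seen. Symbols were given to 451 IDs from general knowledge of public Ensembl IDs, with no table that pairs them, and lists with fewer than 80% of their genes so identified were not analysed. All 9 libraries entered 1 edgeR 4.0.16 fit in R 4.3.3 (TMM, filterByExpr, quasi-likelihood test, no replicate block). P-values were adjusted by Benjamini-Hochberg over 13920 IDs in each comparison, and a change was called at an adjusted p under 0.05. The biological coefficient of variation was 15.56%, and Pearson correlations of log2 CPM within groups were 0.955 to 0.976.

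Values in every library are printed for the 12 members with the lowest 12 h/resting ratio, the 12 with the most CPM, the 3 lowest in each role and members nearest a limit; of genes just outside a limit only the limiting value is printed, apart from MYC, chosen after its values were seen. Of each list with a member, the 3 called genes outside the members with the largest 12 h change are named, or fewer where fewer were called. ESCO1, CHTF18 and the genes that overlap or copy a member were also added after the values were seen. Alternatives covered scaling, floors, limits, filters, DESeq2 1.42.0, a replicate block and leaving out each library. An abundant member is counted in every total but not reported here by name. Promoters are RefSeq's first listed start per gene.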

Additional observations from a re-analysis of the deposited data

Results flagged for a closer look

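The comparisons of 5 h and of 12 h with rest share the resting libraries, and for 24 named genes outside the members these effects differed by the direct test of 12 h against 5 h (edgeR, adjusted p under 0.05). Values below are log2 changes from 5 h to 12 h.

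Among nucleolar genes UTP14A stood at -0.88, NOP14 at -0.98 and DKC1 at -0.77. Among splicing genes HNRNPM stood at -1.64, SRSF6 at -0.67 and CLK4 at 0.70. In division, the condensin subunit NCAPG stood at -0.82 and CDC27 of the anaphase-promoting complex at -0.39. Genes of translation initiation stood at -0.83 (EIF1AX), -0.30 (EIF2S3) and -0.35 (EIF2S1).

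Surface and signalling genes with such a difference were CD69 at -2.12, CD4 at -1.91, LAT at -0.63, CD3G at -0.39, CD6 at -0.32 and the AMPK subunit PRKAB1 at 0.59. Of these, CD4 had a mean under the floor of 10 CPM set for members. Autophagy and lysosome genes were GABARAPL1 at 1.74, WIPI1 at 1.64 and MCOLN1 at -0.67. Others were IFT88 at -0.94, IFT22 at -0.89, RFXANK at -0.51 and UBE2N at -0.30.

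Of these 24 differences, 17 were called under all 15 alternatives. LAT was not called under 8 of them, DESeq2 and its size factors in edgeR included, nor without 5 h replicate 1, 2 or 3 or 12 h replicate 1 or 2. CD6 was not called under 7, as given above. Leaving out 1 library ended the call of CDC27 (5 h or 12 h replicate 2 or 3), of MCOLN1 (5 h replicate 1 or 3, 12 h replicate 1), of EIF2S3 (5 h replicate 3, 12 h replicate 2 or 3), of UBE2N (5 h replicate 2 or 3, 12 h replicate 3) and of RFXANK (12 h replicate 3).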

How the results depend on the processing

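The number of members moved most with the scaling and the limits: it was 85 as reported, 140 with TMM, 36 with a fall to at most 0.5, 230 with a fall to at most 0.7 and 41 with 5 h/resting from 0.9 to 1.1. Without 1 library at a time it was 83 to 104. The DESeq2 size factors gave 119 (63 shared), floors of 5 and 20 CPM gave 99 and 67, and group medians gave 102.

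Members called lower at 5 h against rest numbered 7 as reported, 4 with at least 50 counts in 3 libraries, 12 with DESeq2, 11 with only the 6 libraries compared, and 4 without 5 h replicate 2 to 11 without 5 h replicate 3. Their median log2 at 5 h was -0.12 with at least 50 counts in 3 libraries, and -0.24 to -0.13 with 1 library left out; at 12 h against rest it was -1.11 under that filter. Genes of the mitosis list called higher at 12 h numbered 1 with DESeq2's size factors in edgeR. Held-out ratios taken as medians were 0.913, 0.994 and 0.985 for 5 h/resting, 0.565 for 12 h/resting without replicate 2 and 0.518 for 12 h/5 h without replicate 3. The cause of these moves was not tested. Of 1890 values of the 42 named members under alternatives 24 moved. A reversed sign was looked for only in the comparisons with 12 h, where the choice of members sets the sign, and 0 were found. At 5 h against rest signs did change. There 64 of the 85 members stood below rest as reported, 56 without 5 h replicate 1 and 73 without 5 h replicate 3. Of 585 values of the 39 named list genes at 12 h against rest, 17 were no longer called and 0 reversed.

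With the replicate number as a block, 4644, 4689 and 3373 IDs were called at 5 h against rest, 12 h against rest and 12 h against 5 h, beside 4797, 4887 and 3497 without it, and 5, 85 and 85 members were called lower. Same-numbered libraries do not form pairs: their deviations from the group means correlated at -0.0625 to 0.0901, with 0 of 9 pairs over 0.1, and 3 of 9 libraries correlated best with their own number. The depth of 12 h replicate 2 limits the low members, which had as few as 8 counts in a library.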
